A study of Homo sapiens with 9 samples.

Results

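The genes described here are 10 transcripts of the integrated stress response and the unfolded protein response in OVCAR4 cells, an established human line of ovarian serous adenocarcinoma. They are ATF4, DDIT3, TRIB3, CHAC1, ASNS, SESN2, HSPA5, XBP1, HERPUD1 and DNAJB9, taken by name from a count table of 58735 genes, and all 10 passed the filter that left 16928 genes for testing. RNA-seq was carried out on 9 libraries in 3 groups. The control group, scr, carried a scrambled shRNA vector, and the other groups carried shMPZL3 #1 or shMPZL3 #2, shRNAs against MPZL3, each introduced by lentivirus into cells with no engineered mutation and selected with puromycin for 3 days. Each group had 3 libraries, and all 9, controls included, were therefore transduced and drug selected. The study's methods call the replicates biological, and neither they nor the labels say what was repeated, so p-values measure the spread between these libraries. MPZL3 itself fell to 22.2% of scr with shMPZL3 #1 and to 53.9% with shMPZL3 #2 (edgeR adjusted p = 3.73e-07 and 0.000562), and its normalized counts were 119 to 143 and 271 to 380 in the knockdown libraries against 536 to 611 in scr.

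The integrated stress response begins with kinases that phosphorylate the translation initiation factor eIF2. General protein synthesis then slows while the ATF4 mRNA is translated more, so that ATF4 protein is set largely by translation and less by the amount of its mRNA. ATF4 switches on genes for amino acid uptake, amino acid synthesis and tRNA charging, together with the transcription factor CHOP, encoded by DDIT3. The unfolded protein response of the endoplasmic reticulum (ER) shares the kinase PERK with this pathway and has 2 further sensors. IRE1 splices the XBP1 mRNA, and ATF6 is released by cleavage, and both raise chaperones and degradation factors of the ER. HSPA5, which encodes the chaperone BiP, is the usual marker of that arm, and TRIB3, CHAC1 and ASNS are usual markers of ATF4 activity.

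The regulatory sequences that these arms are known for are shown for the 5 genes in which they were found, since the genes are grouped by arm in what follows. RefSeq promoter windows on GRCh38.p14 were given for all 10 genes, 16 windows of 300 bases from 250 before to 50 after an annotated start. They were searched on both strands for the core TGATGNAA of the C/EBP-ATF response element (CARE, bound by ATF4), for the ER stress response elements ERSE and ERSE-II, and for the unfolded protein response element TGACGTGG. ERSE was searched as CCAAT and CCACG separated by 9 bases and ERSE-II as ATTGG and CCACG separated by 1 base. In the core, N is any base. No match overlapped another. Capitals mark the matches in the stretches below, which are written 5′ to 3′ in the direction of the gene. CHAC1 and ASNS are shown as 30 bases because GENCODE v29 places their matches within a first exon, and the others stop where an annotated exon begins.
CHAC1, CARE core on the opposite strand, chr15:40953251-40953280, plus strand: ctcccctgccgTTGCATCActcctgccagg
ASNS, CARE core, chr7:97872458-97872487, minus strand: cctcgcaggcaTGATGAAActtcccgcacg
HERPUD1, CARE core on the opposite strand and then ERSE-II, chr16:56931892-56932047, plus strand: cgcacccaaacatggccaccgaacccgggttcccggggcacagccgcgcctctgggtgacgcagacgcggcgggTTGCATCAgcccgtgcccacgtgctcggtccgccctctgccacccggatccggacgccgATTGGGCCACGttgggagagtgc
HSPA5, ERSE, chr9:125241344-125241593, minus strand: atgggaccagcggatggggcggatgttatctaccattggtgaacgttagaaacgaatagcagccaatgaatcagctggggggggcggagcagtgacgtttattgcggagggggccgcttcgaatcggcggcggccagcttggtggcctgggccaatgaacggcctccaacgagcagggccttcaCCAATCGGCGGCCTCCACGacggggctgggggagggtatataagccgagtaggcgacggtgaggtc
XBP1, ERSE, chr22:28800598-28800682, minus strand: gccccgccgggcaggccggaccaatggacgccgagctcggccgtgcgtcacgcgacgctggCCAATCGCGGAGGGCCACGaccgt

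The CARE core was in 3 of the 16 windows, those of 3 of the 10 genes, and in 3.62% of all 35116 promoter windows of the table. ERSE was in 2 of the 16 windows, of the 2 genes HSPA5 and XBP1, and in 0.0769% of all windows. ERSE-II was in the HERPUD1 window and in 0.0541% of all windows. The unfolded protein response element was in no window of these genes and in 0.729% of all windows. A match is a description of the letters, and their absence from a window, as for TRIB3, SESN2, DDIT3, ATF4 and DNAJB9, says nothing of sites elsewhere. One further sequence bears on how XBP1 can be read. IRE1 removes 26 bases from the coding sequence of the XBP1 mRNA, a length that is 2 bases over a whole number of codons and so shifts the reading frame. In capitals with 15 bases on each side, from transcripts of GENCODE v29 on GRCh38, minus strand, chr22:28796124-28796149:
XBP1: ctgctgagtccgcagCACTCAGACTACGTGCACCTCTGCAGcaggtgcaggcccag
GENCODE v29 places this gap at 2 positions, 2 bases apart, because the bases around it repeat. The count of XBP1 sums both forms over 3028 exon bases, so the counts below cannot show splicing.

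Per length, HSPA5, ATF4 and XBP1 were the most abundant of the 10 transcripts and ASNS the least. In scr, levels in CPM (counts scaled to the library total) per kilobase of the gene length in the table were 176 ± 6.18 for HSPA5, 91.8 ± 8.25 for ATF4 and 62.1 ± 2.45 for XBP1 (SD, n = 3). DNAJB9 followed at 14.3 ± 1.66, HERPUD1 at 11.5 ± 0.532, SESN2 at 9.71 ± 0.408 and TRIB3 at 9.17 ± 0.665. The lowest were DDIT3 at 6.85 ± 0.888, CHAC1 at 4.63 ± 0.99 and ASNS at 0.69 ± 0.356. SESN2 and TRIB3 were closer together than their spread, and the order of DNAJB9 and HERPUD1, and of DDIT3 and CHAC1, was the opposite on the CPM scale without length. With shMPZL3 #1, XBP1 (71.5 ± 6.39 CPM per kilobase) stood above ATF4 (58.8 ± 7.95), and DDIT3 at 11.7 ± 1.41 stood between DNAJB9 at 23.6 ± 4.43 and HERPUD1 at 11.1 ± 0.929. With shMPZL3 #2, TRIB3 reached 22.4 ± 4.14 and SESN2 16.9 ± 2.96, level with DNAJB9 at 16.8 ± 3.78 within their spread. ASNS was lowest in every group, had 36 to 222 raw counts per library and was the least precise of the 10.

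Totals ranged from 15040102 to 27835841 counts per library. Of 8 epithelial and Muellerian markers of the line, 7 could be tested and WT1 was too low. With shMPZL3 #1, 2 of the 7 were called higher and 1 lower, where 16.8% and 15.3% of all genes were. Their log2 fold changes ranged from -0.61 to 0.35. With shMPZL3 #2, 0 were called in either direction and the range was -0.49 to 0.31. Of 8 markers of leukocytes, endothelium, fibroblasts and hepatocytes, 4 were too low to test, the fibroblast marker DCN was at 0 in every library, and 1 of the other 4 was called, COL1A1, higher with both shRNAs. Its mean normalized counts were 265 in scr, 688 with shMPZL3 #1 and 409 with shMPZL3 #2, and the endothelial marker VWF was at 100, 92.9 and 105. Mostly through COL1A1, the summed level of the 8 was 17.5 to 19.8 CPM in scr, 33.4 to 48.5 with shMPZL3 #1 and 21.4 to 30.3 with shMPZL3 #2. Summed interferon-induced transcripts (8 genes) were 59.8 to 113 CPM in scr, 301 to 864 with shMPZL3 #1 and 693 to 878 with shMPZL3 #2, and all 8 were called higher with both shRNAs. COL1A1 and the interferon-induced list moved with the groups compared below, and their part in the stress genes was not tested. Levels are per library, so fewer cells with a transcript and less transcript per cell cannot be told apart.

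**Figure D1:**
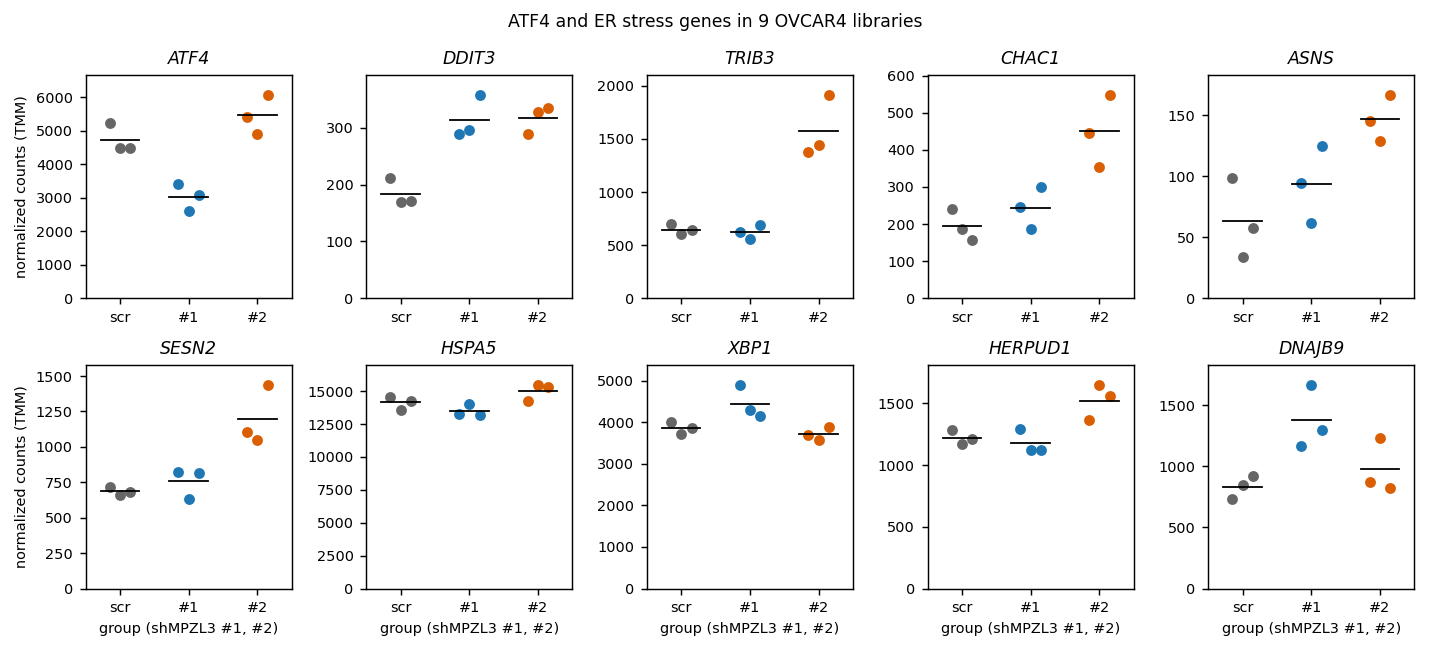
Normalized counts (TMM, linear axis from 0) of the 10 genes in each of the 9 libraries, with the mean of each group as a black line. ATF4 was lowest in the 3 libraries of shMPZL3 #1, DDIT3 was higher in all 6 knockdown libraries than in scr, and TRIB3, CHAC1, ASNS and SESN2 were highest in the libraries of shMPZL3 #2.

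Across the knockdown as a whole, 1 of the 10 genes was called. In the 6 knockdown libraries against the 3 of scr, DDIT3 rose 1.72-fold (log2 fold change 0.78 ± 0.14 SE, adjusted p = 0.00331), and no gene of the 10 was called lower. Among all genes tested, 9.36% were called higher and 6.4% lower. ASNS, CHAC1, TRIB3, SESN2 and DNAJB9 had log2 fold changes of 0.50 to 0.94 that missed the threshold (adjusted p = 0.0685 to 0.144), and HERPUD1, XBP1, HSPA5 and ATF4 lay between -0.16 and 0.15. The median of the 10 was 0.50 and that of all genes 0.02. The count was not stable across settings. The fit of 2 groups counts differences between the shRNAs as spread within the knockdown group, and the fit of 3 groups does not. The average of the separate shRNA effects in the fit of 3 groups called 6 of the 10 higher, where it called 14.6% of all genes higher. The fit of 2 groups with no filter on low counts also called 6, with 5.59% of all genes higher, and DESeq2 called 3, with 12.1%.

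The shRNAs taken one by one gave different sets. With shMPZL3 #1, 2 genes were called higher (DDIT3 and DNAJB9) and 1 lower (ATF4), where 16.8% of all genes were called higher and 15.3% lower. With shMPZL3 #2, 6 were called higher (TRIB3, ASNS, CHAC1, SESN2, DDIT3 and HERPUD1) and 0 lower, where 9.36% of all genes were higher and 5.8% lower. Between the shRNAs, 5 genes were called higher with shMPZL3 #2 than with shMPZL3 #1 (TRIB3, CHAC1, ATF4, SESN2 and HERPUD1) and 1 lower (DNAJB9), where 7.56% of all genes were higher and 7.56% lower. The median log2 fold change of the 10 was 0.17 with shMPZL3 #1 and 0.55 with shMPZL3 #2, beside 0.01 and 0.00 for all genes. Both sets of fold changes use the same scr libraries and are given side by side. Of all 16928 genes tested, 1104 were called higher with both shRNAs, 598 lower with both and 57 in opposite directions. Of the 10 genes, 1 was called higher with both, DDIT3. Genes named below as called with both shRNAs, or in opposite directions, are to be read beside these counts.

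**Figure D2:**
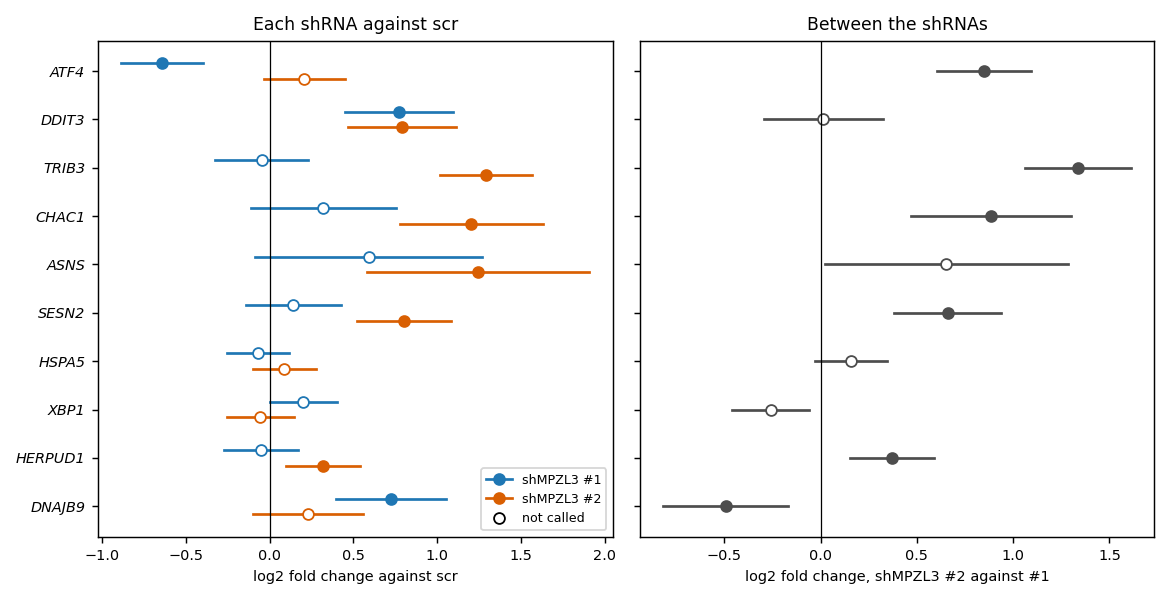
Log2 fold changes of the 10 genes with 95% confidence intervals, left for each shRNA against scr and right for shMPZL3 #2 against shMPZL3 #1; filled points were called at an adjusted p under 0.05. The intervals of DDIT3 lie above 0 with both shRNAs, that of ATF4 lies below 0 with shMPZL3 #1, and those of HSPA5 include 0 in every comparison.

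ATF4, the transcription factor at the centre of the response (chr22:39519695-39522685, plus strand), had normalized counts of 5230, 4502 and 4482 in scr. They were 3423, 2606 and 3085 with shMPZL3 #1 and 5415, 4918 and 6077 with shMPZL3 #2. All libraries of shMPZL3 #1 lay below all of scr, while those of shMPZL3 #2 overlapped scr. Separation of 3 libraries from 3 was common: with shMPZL3 #1, 23.9% of all genes tested lay wholly above scr and 22.8% wholly below. The shares were 18.7% and 17.6% with shMPZL3 #2, and 15.4% and 14.6% for shMPZL3 #2 against shMPZL3 #1. Separations of groups given below for other genes are to be read beside these shares. ATF4 mRNA fell by 0.64 ± 0.12 on the log2 scale with shMPZL3 #1 (adjusted p = 0.000549), and the log2 fold change with shMPZL3 #2 was 0.21 ± 0.12 (adjusted p = 0.246). The shRNAs differed by 0.85 ± 0.12 (adjusted p = 0.000146). A gene count does not measure translation, so these values say nothing of ATF4 protein.

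DDIT3 encodes CHOP, the factor through which prolonged ER stress can promote cell death. Its normalized counts were 211, 169.8 and 170.5 in scr, 289, 295 and 358 with shMPZL3 #1, and 290, 327 and 334 with shMPZL3 #2. Every knockdown library was above every library of scr, and the permutation test of the 6 against the 3 gave the smallest p that it allows (exact p = 0.0119, two-sided). Of all genes tested, 11.8% lay wholly above scr in the 6 libraries in this way and 11% wholly below. DDIT3 rose 1.71-fold with shMPZL3 #1 (log2 fold change 0.77 ± 0.15, adjusted p = 0.00106) and 1.73-fold with shMPZL3 #2 (0.79 ± 0.15, adjusted p = 0.002). The difference between the shRNAs was 0.01, with a 95% interval from -0.30 to 0.32. The libraries carry no strand information, and 27.2% of the exon bases of DDIT3 also lie in exons of MARS on the other strand, which had 35121 counts in all against 2507 for DDIT3. MARS, a methionyl-tRNA synthetase gene, had log2 fold changes of -0.27 with shMPZL3 #1 and 0.31 with shMPZL3 #2, and its part in the DDIT3 counts was not tested.

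TRIB3 is a pseudokinase induced by ATF4 and CHOP that dampens AKT signalling and ATF4 itself. Its normalized counts were 697, 604 and 641 in scr, 626, 559 and 691 with shMPZL3 #1, and 1382, 1442 and 1915 with shMPZL3 #2. All libraries of shMPZL3 #2 lay above the others, and those of shMPZL3 #1 and scr overlapped. TRIB3 rose 2.45-fold with shMPZL3 #2 (log2 fold change 1.29 ± 0.13, adjusted p = 7.53e-06) and had a log2 fold change of -0.05 ± 0.13 with shMPZL3 #1 (adjusted p = 0.825). The difference between the shRNAs was 1.34 ± 0.13 (adjusted p = 8.14e-06).

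CHAC1, a glutathione-degrading enzyme induced by ATF4, had normalized counts of 241, 188 and 158 in scr. They were 245, 186 and 299.8 with shMPZL3 #1 and 446, 354 and 548 with shMPZL3 #2. Only shMPZL3 #2 separated from scr, with a 2.30-fold rise (log2 fold change 1.20 ± 0.20, adjusted p = 0.000613), and shMPZL3 #1 gave 0.32 ± 0.21 (adjusted p = 0.255). The shRNAs differed by 0.89 ± 0.20 (adjusted p = 0.00606). SESN2, a leucine sensor upstream of mTORC1, had the same order of groups, with 719, 662 and 683 normalized counts in scr, 824, 632 and 819 with shMPZL3 #1 and 1108, 1046 and 1436 with shMPZL3 #2. It rose 1.74-fold with shMPZL3 #2 (0.80 ± 0.13, adjusted p = 0.000568), against 0.14 ± 0.13 with shMPZL3 #1 (adjusted p = 0.456), and the shRNAs differed by 0.66 ± 0.13 (adjusted p = 0.00297).

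ASNS, asparagine synthetase, had normalized counts of 98.4, 34.0 and 57.7 in scr, 94.3, 61.6 and 125 with shMPZL3 #1, and 146, 129 and 167 with shMPZL3 #2. Relative to their mean, the scr values were the most spread of the 10 genes, and the libraries of shMPZL3 #2 were above all others. ASNS rose 2.37-fold with shMPZL3 #2 (log2 fold change 1.24 ± 0.32, adjusted p = 0.0131) and gave 0.59 ± 0.32 with shMPZL3 #1 (adjusted p = 0.175). The call with shMPZL3 #2 was lost when scr replicate 2 or shMPZL3 #2 replicate 3 was left out (adjusted p up to 0.0721). The difference between the shRNAs, 0.65 with a 95% interval from 0.02 to 1.28, was not called (adjusted p = 0.154).

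Of the 4 ER genes, HSPA5 and XBP1 were called in no comparison. HSPA5, the chaperone BiP that holds the stress sensors inactive and binds unfolded proteins, had normalized counts of 14549, 13590 and 14289 in scr, 13285, 13999 and 13157 with shMPZL3 #1, and 14287, 15467 and 15335 with shMPZL3 #2. Its log2 fold changes were -0.07 (95% interval -0.26 to 0.12, adjusted p = 0.59) and 0.09 (-0.10 to 0.27, adjusted p = 0.548). HSPA5 was therefore not called, and changes beyond 0.27 in either direction lay outside both intervals. The libraries of shMPZL3 #2 were above all of shMPZL3 #1, and both groups overlapped scr. The difference between the shRNAs, 0.16, was not called (adjusted p = 0.253). XBP1, the transcription factor activated by splicing, had normalized counts of 4017, 3713 and 3863 in scr, 4894, 4296 and 4141 with shMPZL3 #1, and 3700, 3562 and 3886 with shMPZL3 #2. The libraries of shMPZL3 #1 were above all others, but neither 0.20 ± 0.09 with shMPZL3 #1 (log2 fold change, adjusted p = 0.116) passed the threshold nor -0.06 ± 0.09 with shMPZL3 #2 (adjusted p = 0.738). The difference between the shRNAs, -0.26 ± 0.09, missed the threshold (adjusted p = 0.0764) and passed it under 4 of the 16 alternatives, DESeq2 among them.

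HERPUD1 and DNAJB9 moved with different shRNAs. HERPUD1, an ER membrane protein that helps degrade unfolded proteins, had normalized counts of 1280, 1169 and 1213 in scr, 1292, 1125 and 1118 with shMPZL3 #1, and 1363, 1647 and 1557 with shMPZL3 #2. The libraries of shMPZL3 #2 were above all others. It rose 1.25-fold with shMPZL3 #2 (log2 fold change 0.32 ± 0.10, adjusted p = 0.0468) and gave -0.05 ± 0.10 with shMPZL3 #1 (adjusted p = 0.751). The call was close to the threshold and was lost without any 1 of the scr libraries, without shMPZL3 #2 replicate 2 or 3 and without the filter on low counts (adjusted p up to 0.177). The shRNAs differed by 0.37 ± 0.10 (adjusted p = 0.023), a difference lost without replicate 2 or 3 of either shRNA and in a fit of the 6 libraries alone (up to 0.091). DNAJB9, the BiP cochaperone ERdj4 and a target of spliced XBP1, had 729, 845 and 921 normalized counts in scr, 1166, 1663 and 1293 with shMPZL3 #1, and 875, 1229 and 825 with shMPZL3 #2. All libraries of shMPZL3 #1 were above scr and those of shMPZL3 #2 overlapped scr. DNAJB9 rose 1.65-fold with shMPZL3 #1 (0.72 ± 0.16, adjusted p = 0.00204) and gave 0.23 ± 0.16 with shMPZL3 #2 (adjusted p = 0.353). The difference of -0.49 ± 0.15 (adjusted p = 0.0383) was lost when scr replicate 2, shMPZL3 #1 replicate 2 or 3, or shMPZL3 #2 replicate 1 or 3 was left out, and in a fit of the 6 libraries alone (adjusted p up to 0.17). Of the exon bases of DNAJB9, 6.45% are shared with THAP5 and 3.49% with PNPLA8 on the other strand.

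The levels of TRIB3, CHAC1 and SESN2 followed each other over the 9 libraries (Pearson r of log2 CPM 0.912 to 0.960), while ATF4 mRNA and DDIT3 did not (-0.196) and ATF4 and DNAJB9 ran in opposite directions (-0.847). These are descriptions over 9 libraries that share 3 groups. Among 11833 protein-coding genes, the patterns most like ATF4 were those of PHGDH (r = 0.986), GPT2 (0.986) and EIF4EBP1 (0.982), which encode serine and alanine synthesis enzymes and an inhibitor of cap-dependent translation. For TRIB3 they were WARS (0.993), the tryptophanyl-tRNA synthetase, PCK2 (0.989), the mitochondrial form of phosphoenolpyruvate carboxykinase, and ZNF747 (0.983). For HSPA5 they were ASH2L, TIPARP and LAMA3, with lower values (0.944, 0.936 and 0.934). For DDIT3 they were RSAD2, SSH1 and BSDC1 (0.976, 0.973 and 0.971). The closest gene was SLC6A9 for CHAC1 (0.987), BRD3 for ASNS (0.952) and RAB25 for SESN2 (0.983). It was PDE9A for XBP1 (0.950), VSTM1 for HERPUD1 (0.957) and KLHL7 for DNAJB9 (0.981).

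Beyond the 10 genes, 12 lists of the same pathways held 118 genes, of which 117 were tested. With shMPZL3 #1, 18 were called higher and 34 lower, and with shMPZL3 #2, 26 higher and 10 lower. Between the shRNAs, 35 were higher with shMPZL3 #2 and 4 lower. With shMPZL3 #1 these were 15.4% higher and 29.1% lower, beside 16.8% and 15.3% of all genes. With shMPZL3 #2 they were 22.2% and 8.55%, beside 9.36% and 5.8%, and between the shRNAs 29.9% and 3.42%, beside 7.56% in each direction. Counts in single lists are small and are to be read against the same shares of all genes. The median log2 fold changes of the 117 genes were -0.12, 0.07 and 0.16, beside 0.01, 0.00 and 0.01 for all genes.

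**Figure D3:**
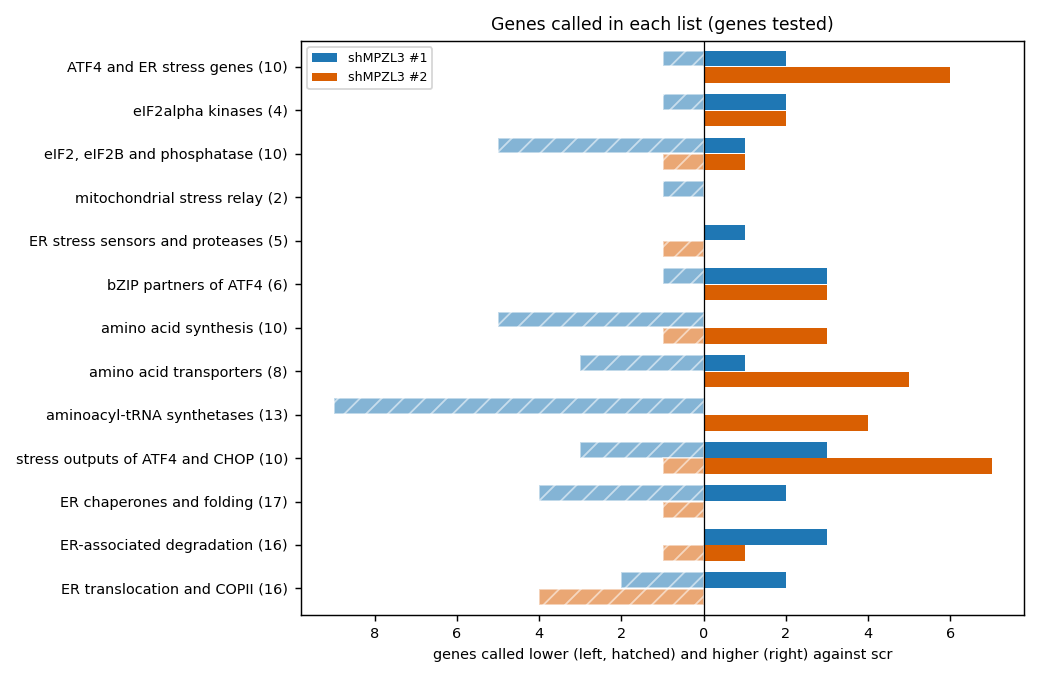
Number of genes called higher (right) and lower (left, hatched) against scr in each list, with the number tested in brackets; blue bars are shMPZL3 #1 and orange bars shMPZL3 #2. The longest bars are 9 tRNA charging genes lower with shMPZL3 #1 and 7 stress outputs higher with shMPZL3 #2.

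The kinases at the head of the pathway differed among themselves. EIF2AK3 (PERK, the ER kinase) rose with both shRNAs (log2 fold change 0.36 and 0.53, adjusted p = 0.0363 and 0.00901), and so did EIF2AK2 (PKR, which senses double-stranded RNA and is itself induced by interferon), with 0.49 and 0.79 (adjusted p = 0.00393 and 0.000179). EIF2AK1 (HRI, the heme-regulated kinase) fell by 0.27 with shMPZL3 #1 (adjusted p = 0.0319) and gave -0.08 with shMPZL3 #2. EIF2AK4 (GCN2, the amino acid sensor) gave 0.25 and -0.00 (adjusted p = 0.064 and 0.992). The EIF2AK3 call with shMPZL3 #1 was lost without any 1 scr library or without shMPZL3 #1 replicate 2 or 3 (adjusted p up to 0.133), and the EIF2AK1 call under 8 of 16 alternatives, among them leaving out any 1 scr library, shMPZL3 #1 replicate 1 or 3 or shMPZL3 #2 replicate 3 (up to 0.109). The mitochondrial relay to HRI had no gene called higher. DELE1 fell by 0.28 with shMPZL3 #1 (adjusted p = 0.0436), a call lost under 9 of 16 alternatives (up to 0.126), among them any 1 scr library, shMPZL3 #1 replicate 2 or 3 and shMPZL3 #2 replicate 3, and OMA1 gave -0.20 and -0.47 without a call.

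PPP1R15A encodes GADD34, the stress-induced subunit that directs a phosphatase back to eIF2. In normalized counts, scr had 616, 694 and 642, shMPZL3 #1 had 912, 871 and 1210, and shMPZL3 #2 had 1193, 1063 and 1402. No knockdown library overlapped scr, and the log2 fold changes were 0.62 ± 0.14 and 0.91 ± 0.13 (adjusted p = 0.00236 and 0.000212). The other 9 genes for eIF2, its exchange factor eIF2B and the phosphatase included 5 that fell with shMPZL3 #1 and 1 that fell with shMPZL3 #2. EIF2S1, the subunit that is phosphorylated, fell by 0.37 with each (adjusted p = 0.0114 and 0.0234), and EIF2S2 fell by 0.36 with shMPZL3 #1 only (adjusted p = 0.0132) and was 0.45 higher with shMPZL3 #2 than with shMPZL3 #1 (adjusted p = 0.00695). These calls against scr were lost without 1 library: EIF2S1 with shMPZL3 #1 without its replicate 3 (0.0587) and with shMPZL3 #2 without any 1 scr library or its replicate 1 or 3 (up to 0.127), and EIF2S2 without scr replicate 1 or shMPZL3 #1 replicate 3 (up to 0.0807). The number that fell with shMPZL3 #1 was 1 to 6 when single libraries were left out, with 1 without shMPZL3 #1 replicate 3, 2 without scr replicate 1 and 3 without scr replicate 2.

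Among partner transcription factors of ATF4, ATF3 and NUPR1 rose with both shRNAs. ATF3, a stress-induced repressor, had normalized counts of 177, 198 and 217 in scr, 345, 347 and 387 with shMPZL3 #1, and 462, 507 and 636 with shMPZL3 #2. The 3 groups did not overlap. It rose by 0.87 ± 0.15 and 1.44 ± 0.15 on the log2 scale (adjusted p = 0.000399 and 8.28e-06), and the shRNAs differed by 0.58 (adjusted p = 0.0118), a difference lost without shMPZL3 #2 replicate 3 (0.0944). NUPR1, a small stress-induced chromatin factor, also rose with both, but more with shMPZL3 #1 (1.30 and 0.80, adjusted p = 2.22e-05 and 0.00221, difference -0.50, adjusted p = 0.035). That difference was lost without scr replicate 2, shMPZL3 #1 replicate 3 or shMPZL3 #2 replicate 1 or 2 (up to 0.211). CEBPG, a dimer partner of ATF4, rose with shMPZL3 #2 (0.56, adjusted p = 0.00205) and gave 0.18 with shMPZL3 #1, and the difference of 0.38 (adjusted p = 0.0237) was lost without shMPZL3 #1 replicate 3 or shMPZL3 #2 replicate 2 or 3 (up to 0.106). Of the 6 genes of this list, 3 rose with each shRNA. JDP2, named after its values were seen, fell by 0.42 with shMPZL3 #1 (adjusted p = 0.0282), a call lost without any 1 scr library or shMPZL3 #1 replicate 1 or 2.

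Calls among the amino acid genes were mostly lower with shMPZL3 #1 and mostly higher with shMPZL3 #2. With shMPZL3 #1, 5 of 10 synthesis genes, 3 of 8 transporters and 9 of 13 tRNA charging genes (12 synthetases and the exportin XPOT) fell, and 1 of these 31 rose, SLC1A4. With shMPZL3 #2, 3, 5 and 4 of them rose and 1 fell, PSAT1. Of all genes, 15.3% were lower with shMPZL3 #1 and 9.36% higher with shMPZL3 #2. Directly between the shRNAs, 5, 7 and 11 were higher with shMPZL3 #2 and none was lower. The number of tRNA charging genes that fell with shMPZL3 #1 was 4 to 9 when single libraries were left out, with 4 without scr replicate 1 or shMPZL3 #1 replicate 3, 5 without shMPZL3 #2 replicate 3 and 6 without scr replicate 2. Those higher between the shRNAs were 8 to 12. The 3 synthesis genes that rose with shMPZL3 #2 were 1 without scr replicate 3, 2 without scr replicate 2 or shMPZL3 #2 replicate 1 or 3, and 5 without shMPZL3 #1 replicate 1 or shMPZL3 #2 replicate 2.

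**Figure D4:**
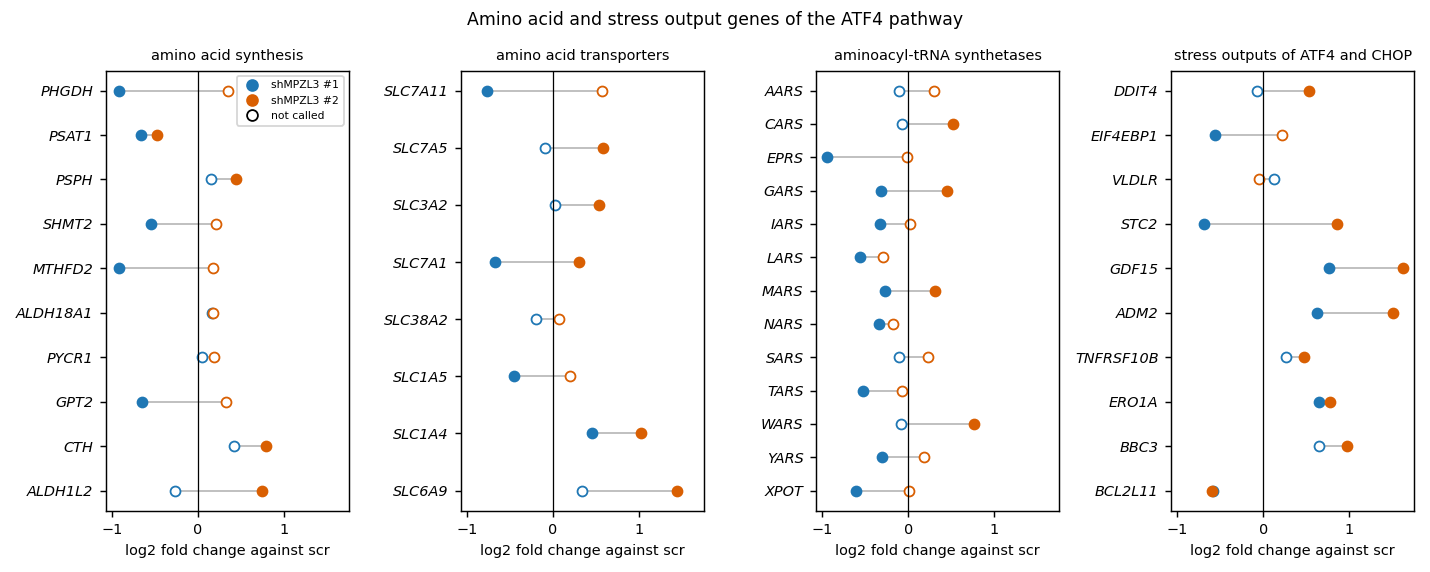
Log2 fold changes against scr for the amino acid, tRNA charging and stress output genes, blue for shMPZL3 #1 and orange for shMPZL3 #2, joined by a grey line for each gene; open points were not called. All 13 tRNA charging genes have the orange point to the right of the blue one, and GDF15 and ADM2 lie right of 0 with both shRNAs.

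PHGDH, the first enzyme of serine synthesis, had normalized counts of 5954, 4480 and 4492 in scr, 3024, 2415 and 2462 with shMPZL3 #1, and 6503, 5509 and 7069 with shMPZL3 #2. It fell by 0.92 ± 0.13 on the log2 scale with shMPZL3 #1 (adjusted p = 8.43e-05), gave 0.35 ± 0.13 with shMPZL3 #2 (adjusted p = 0.0751), and was 1.27 higher with shMPZL3 #2 than with shMPZL3 #1 (adjusted p = 1.3e-05). MTHFD2, the mitochondrial folate enzyme, followed it with -0.92, 0.18 and a difference of 1.09 (adjusted p = 1.84e-05 for the difference). ALDH1L2, a mitochondrial folate dehydrogenase, gave -0.26 with shMPZL3 #1 and rose by 0.75 with shMPZL3 #2 (adjusted p = 0.00241), a difference of 1.01 (adjusted p = 0.000267). PSAT1, the next enzyme of serine synthesis, was the exception and fell with both (-0.66 and -0.48, adjusted p = 0.000217 and 0.00573).

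Among the transporters, SLC1A4, which carries alanine, serine and cysteine, rose with both shRNAs and more with shMPZL3 #2 (0.45 and 1.02, difference 0.57, adjusted p = 0.00143). SLC6A9, a glycine transporter, had normalized counts of 198, 128 and 128 in scr, 183, 135 and 252 with shMPZL3 #1, and 357, 337 and 531 with shMPZL3 #2, a rise of 1.44 ± 0.24 with shMPZL3 #2 (adjusted p = 0.000512) and a difference of 1.11 (adjusted p = 0.0038). SLC7A11, the cystine importer, fell by 0.76 with shMPZL3 #1 (adjusted p = 0.0292), gave 0.57 with shMPZL3 #2 (adjusted p = 0.122), and differed by 1.33 (adjusted p = 0.00167). The fall was lost without scr replicate 1 or shMPZL3 #1 replicate 1 or 3 (adjusted p up to 0.252). SLC7A1, a cationic amino acid transporter named after its values were seen, fell with shMPZL3 #1 (-0.67, adjusted p = 9.35e-05) and gave 0.30 with shMPZL3 #2 (adjusted p = 0.0476). The latter call was lost under 7 of 16 alternatives (up to 0.179), RLE scaling, no filter, any 1 scr library left out and shMPZL3 #2 replicate 1 or 3 left out, while the difference of 0.97 (adjusted p = 1.03e-05) was called under all 16.

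Among the tRNA charging genes, EPRS, which charges glutamate and proline tRNAs, had normalized counts of 4029, 3580 and 3528 in scr, 2091, 2059 and 1653 with shMPZL3 #1, and 3329, 3922 and 3766 with shMPZL3 #2. It fell by 0.94 ± 0.11 with shMPZL3 #1 (adjusted p = 1.72e-05), gave -0.02 with shMPZL3 #2, and differed by 0.92 (adjusted p = 4.59e-05). WARS rose with shMPZL3 #2, with 3874, 4212 and 4542 normalized counts beside 2532, 2400 and 2477 in scr (log2 fold change 0.77 ± 0.09, adjusted p = 3.26e-05), against -0.08 with shMPZL3 #1. The difference was 0.85 (adjusted p = 2.21e-05). WARS is known as a target of interferon as well as of ATF4. GARS, for glycine, was called in opposite directions (-0.32 and 0.46, adjusted p = 0.0263 and 0.00633), with the fall lost without scr replicate 1, shMPZL3 #1 replicate 3 or shMPZL3 #2 replicate 3 (up to 0.149). MARS (-0.27 and 0.31) was the other gene of this list called in opposite directions, both just under the threshold (adjusted p = 0.0478 and 0.0477), and was named after its values were seen. The fall was lost under 10 and the rise under 7 of 16 alternatives (up to 0.188 and 0.222), any 1 scr library left out among both, and the difference of 0.58 (adjusted p = 0.00101) was called under all 16.

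Stress outputs of ATF4 and CHOP rose more often with shMPZL3 #2 by count, a difference in number that was not itself tested. Of 10 tested, 3 rose and 3 fell with shMPZL3 #1, where 16.8% and 15.3% of all genes did. With shMPZL3 #2, 7 rose and 1 fell, where 9.36% and 5.8% of all genes did (FGF21 was too low to test). With single libraries left out, 2 to 4 rose and 3 fell with shMPZL3 #1, and 5 to 7 rose and 1 fell with shMPZL3 #2. GDF15, a secreted stress cytokine, had normalized counts of 1290, 1049 and 1239 in scr, 1958, 1759 and 2328 with shMPZL3 #1, and 3633, 3390 and 4005 with shMPZL3 #2. The 3 groups did not overlap, the log2 fold changes were 0.76 ± 0.12 and 1.63 ± 0.12 (adjusted p = 0.000169 and 4.96e-07), and the difference was 0.87 (adjusted p = 0.000125). ADM2, a secreted peptide of the adrenomedullin family, gave 0.62 and 1.51 (adjusted p = 0.00865 and 1.28e-05, difference 0.88, adjusted p = 0.0013), the former lost without shMPZL3 #1 replicate 3 (0.0558). ERO1A, the ER oxidase that CHOP induces, rose by 0.64 and 0.77 (adjusted p = 0.0074 and 0.00468).

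STC2, a secreted glycoprotein induced by ATF4, was called in opposite directions. Its normalized counts were 3199, 2882 and 3183 in scr, 1963, 1748 and 2025 with shMPZL3 #1, and 4741, 5614 and 6399 with shMPZL3 #2, and the groups did not overlap. The log2 fold changes were -0.69 ± 0.11 and 0.86 ± 0.11 (adjusted p = 0.000233 and 6.66e-05), a difference of 1.55 (adjusted p = 5.43e-07). BCL2L11, the death gene BIM, which CHOP is known to induce, went the other way from DDIT3 and fell by 0.59 and 0.60 (adjusted p = 0.000579 and 0.00104).

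Of 17 chaperone and folding genes, 2 rose and 4 fell with shMPZL3 #1, where 16.8% and 15.3% of all genes did. With shMPZL3 #2, 0 rose and 1 fell, where 9.36% and 5.8% of all genes did. With single libraries left out the counts with shMPZL3 #1 were 1 to 2 higher and 3 to 5 lower. All 17 log2 fold changes lay between -0.60 and 0.54 with shMPZL3 #1 and between -0.42 and 0.25 with shMPZL3 #2. DNAJB11, another BiP cochaperone, fell with both (-0.41 and -0.30, adjusted p = 0.00436 and 0.0452), the latter lost under 7 of 16 alternatives (up to 0.2), among them any 1 scr library, shMPZL3 #1 replicate 1 and shMPZL3 #2 replicate 1 or 3. HSP90B1 (GRP94) and PDIA4, a disulfide isomerase, fell with shMPZL3 #1 (-0.60 and -0.48, adjusted p = 0.00108 and 0.00259), gave -0.20 and -0.08 with shMPZL3 #2, and were 0.40 higher each with shMPZL3 #2 than with shMPZL3 #1 (adjusted p = 0.0311 and 0.0181). The HSP90B1 difference was lost without scr replicate 2, shMPZL3 #1 replicate 3 or shMPZL3 #2 replicate 2 or 3 (up to 0.127), and the PDIA4 difference without shMPZL3 #1 replicate 2 or 3 or shMPZL3 #2 replicate 1 or 3 (up to 0.0893).

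**Figure D5:**
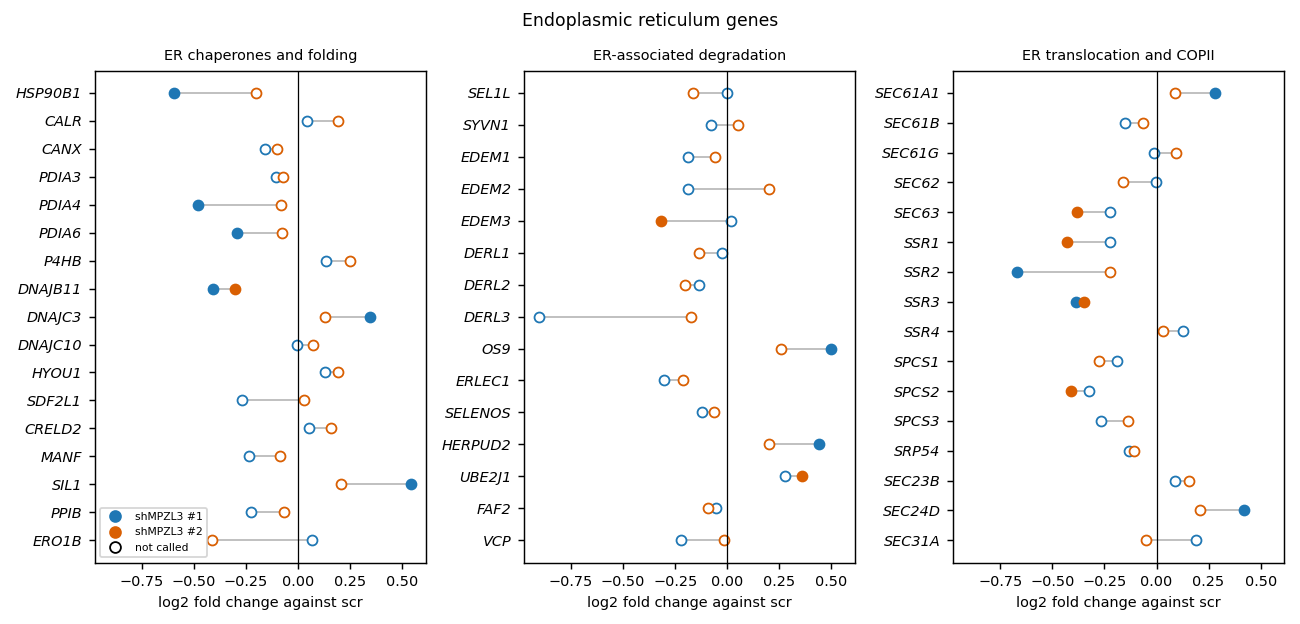
Log2 fold changes against scr for chaperones, ER-associated degradation factors and translocation or COPII transport genes, blue for shMPZL3 #1 and orange for shMPZL3 #2; open points were not called. Most points are open and within 0.5 of 0, and DNAJB11 and SSR3 are filled left of 0 with both shRNAs.

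Of 16 genes of ER-associated degradation, 3 rose with shMPZL3 #1 and 1 rose and 1 fell with shMPZL3 #2, where each became 0 or 1 with single libraries left out. These counts are near the shares of all genes (16.8% higher with shMPZL3 #1, and 9.36% higher and 5.8% lower with shMPZL3 #2). The mannose-trimming proteins EDEM2 and EDEM3 differed between the shRNAs in opposite directions (0.39 and -0.33, adjusted p = 0.0308 and 0.0377), and each difference was lost when scr replicate 2 or 3, shMPZL3 #1 replicate 2 or shMPZL3 #2 replicate 1 or 3, among others, was left out (up to 0.115 and 0.14). Of 16 translocation and COPII genes, 2 rose and 2 fell with shMPZL3 #1 and 0 rose and 4 fell with shMPZL3 #2, and the 4 became 0 without shMPZL3 #2 replicate 3 and 1 without any 1 scr library or shMPZL3 #2 replicate 1. SSR3, a subunit of the translocon-associated complex, fell with both (-0.38 and -0.35, adjusted p = 0.00898 and 0.0293), the latter lost without any 1 scr library or shMPZL3 #2 replicate 1 or 3 (up to 0.157). SSR2, another subunit, fell with shMPZL3 #1 (-0.67, adjusted p = 9.55e-05) and differed by 0.44 (adjusted p = 0.00532).

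Of 5 ER sensors and proteases, 1 rose with shMPZL3 #1 and 1 fell with shMPZL3 #2. ERN1, which encodes IRE1, rose by 0.66 with shMPZL3 #1 (adjusted p = 0.00822, and 0.0549 without scr replicate 1) and gave 0.42 with shMPZL3 #2 (adjusted p = 0.115). ATF6 gave -0.01 and -0.08 and ATF6B 0.04 and -0.06, and neither was called. MBTPS2, a protease that releases ATF6, fell by 0.57 with shMPZL3 #2 (adjusted p = 0.0042), gave -0.01 with shMPZL3 #1, and differed by -0.55 (adjusted p = 0.00524).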

How the data were processed

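Poly-A selected libraries without strand information were made from 9 samples of OVCAR4 cells. The authors deposited a table of unnormalized read counts for each gene and library, from reads aligned to hg38 with HISAT2 2.0.5 and counted with featureCounts 1.5.0-p3 per the submitters' processing notes. The annotation release is not given in the sources used here, and positions are those of the table. Reads that overlap genes on opposite strands cannot be assigned by strand.

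The tests used edgeR 4.0.16 with limma 3.58.1 in R 4.3.3. After filterByExpr on the 3 groups, TMM scaling and quasi-likelihood fits, the 6 knockdown libraries were tested two-sided against the 3 of scr in a fit of 2 groups, and each shRNA against scr and the shRNAs against each other in a fit of 3 groups. P-values were adjusted by Benjamini-Hochberg over the 16928 genes tested, and genes were called under 0.05. Errors of log2 fold changes are standard errors. Normalized counts are TMM-scaled to the mean library size, log2 CPM used a prior count of 2, and CPM per kilobase used the gene length in the table. Exact permutation tests of log2 CPM were two-sided, with a smallest p of 0.0119 for 6 against 3 libraries and 0.1 for 3 against 3. The edgeR fit of 3 groups was checked on simulated counts, while the grouped fit, DESeq2 and the permutation tests were not. DESeq2 1.42.0, other normalizations and filters, a replicate block and leaving out each library were tried as alternatives. Sequences were searched with Python 3.11.15.

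The 10 genes and the pathway lists were chosen with earlier results of these data known. Named beside the 10 were the eIF2 kinases, PPP1R15A, DELE1, OMA1, ERN1, ATF6 and ATF6B. From every other list, up to 3 genes called higher with both shRNAs were named, up to 3 called lower with both, and up to 3 called in opposite directions or between the shRNAs, each by the mean absolute log2 fold change. The values of a further gene of the degradation list are not reported here, and it is not plotted.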

Additional observations from a re-analysis of the deposited data

Results flagged for a closer look

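For 6 of the 10 genes the effects of the shRNAs differed from each other, by the edgeR test of shMPZL3 #2 against shMPZL3 #1. That test called 7.56% of all genes higher and 7.56% lower. On the log2 scale, the effect of shMPZL3 #2 was higher than that of shMPZL3 #1 by 1.34 for TRIB3, 0.89 for CHAC1, 0.85 for ATF4, 0.66 for SESN2 and 0.37 for HERPUD1. For DNAJB9 it was lower, with a difference of -0.49. The HERPUD1 difference was lost under 5 and the DNAJB9 difference under 6 of 16 alternatives. MPZL3 was at 22.2% of scr with shMPZL3 #1 and 53.9% with shMPZL3 #2, and the summed interferon-induced transcripts were at 301 to 864 and 693 to 878 CPM; the part of either in these differences was not tested. Outliers were not tested within groups of 3 libraries.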

How the results depend on the processing

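Of the 10 genes, the grouped comparison called 1 as reported, 3 with DESeq2, 6 with no filter on low counts, 6 with the mean of the shRNA coefficients in a fit of 3 groups, and 1 to 4 when 1 library was left out (4 without shMPZL3 #1 replicate 2 and 2 without shMPZL3 #2 replicate 3). Where a log2 fold change of 1 or more in size was also required, the counts were 0 grouped, 0 with shMPZL3 #1, 3 with shMPZL3 #2 and 1 between the shRNAs. With 1 library left out, 3 to 4 genes were called with shMPZL3 #1, 4 to 6 with shMPZL3 #2 and 4 to 6 between the shRNAs. RLE, upper-quartile scaling, at least 10 counts in every library and, for single comparisons, a fit of the 6 libraries compared kept these counts within 1.5 times. The shares of all genes moved too. With 1 library left out, 2.58% to 9.88% were called higher and 0.978% to 8.25% lower in the grouped comparison. They were 11.3% to 17% and 9.68% to 16.1% with shMPZL3 #1, and 5.17% to 9.89% and 2.02% to 7.89% with shMPZL3 #2. Between the shRNAs they were 3.81% to 8.67% and 4.58% to 8.17%. No share of all genes was taken for the fold change requirement. The cause of these shifts was not tested.

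Values near 0 changed sign. DDIT3 between the shRNAs gave -0.0131 with upper-quartile scaling, -0.00445 with at least 10 counts in every library, and -0.0504 to 0.119 over all alternatives, single libraries left out included. TRIB3 with shMPZL3 #1 ranged from -0.124 to 0.0279 and HSPA5 in the grouped comparison from -0.0181 to 0.048.

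A replicate block kept the counts of the 10 genes at 1, 3 and 6 against scr and gave 8 between the shRNAs, adding ASNS (0.69, adjusted p = 0.0342) and XBP1 (-0.26, adjusted p = 0.0359). Between the shRNAs, the block called 11.9% of all genes higher and 10.7% lower, beside 7.56% in each direction without it. Against scr, its shares higher and lower were 8.47% and 5.85% grouped, 19.2% and 18.3% with shMPZL3 #1, and 12.3% and 9.43% with shMPZL3 #2. Equal replicate numbers were not shown to pair the libraries: their deviations from the group means correlated at -0.0014 to 0.218, below 0.1 for 6 of the 9 pairs. Between the shRNAs they were 0.0966 to 0.218, against -0.147 to 0.00376 for unequal numbers. Deviations cancel within a group, so high values for equal numbers lower those for unequal numbers by construction. Each library of shMPZL3 #1 correlated best with its own number in shMPZL3 #2, a hint from the data that the labels do not give. FGF21 and WT1 had too few counts to be tested.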
